A study of Mus musculus with 9 samples.

Results

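The guanylate binding protein genes of mouse chromosome 3 that are described here are Gbp2, Gbp2b, Gbp3, Gbp5 and Gbp7, 5 of the 24421 genes in the deposited count table. They were picked by symbol, with their values in the mutant and wild-type libraries already known: Gbp2b had no counts in any wild-type library, and the genes lie on the same chromosome as Tet2. All 5 passed the filter on low counts, Gbp2b through the mutant libraries alone. Bulk RNA sequencing was done on myeloid blast-like cells. Lineage-positive cells had been removed from bone marrow, and the rest were expanded for 5 days with the cytokines SCF, IL-3 and IL-6. The 9 libraries form 3 groups of 3, and the labels give a C57BL/6 background for all of them. Wild-type (WT) cells received vehicle. Tet2-/-Flt3ITD cells, which are null for the DNA demethylase Tet2 and have an internal tandem duplication (ITD) of the growth factor receptor Flt3, received either vehicle or SHP099 for 24 h. This compound holds the phosphatase SHP2, the product of Ptpn11, in its closed, inactive form. The mutant cultures were set up from individual mice; for the WT cultures no such statement is given, so their spread, and the p-values that rest on it, may be technical. All mutant cells carry both alleles, no culture carries just 1 of them, WT cells did not receive SHP099, and how the alleles were made is not given in the sources used here.

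Guanylate binding proteins are large GTPases that interferons induce, above all interferon gamma, through transcription factors that include IRF1. They assemble on the vacuoles of intracellular pathogens and on the surface of cytosolic bacteria, break these membranes and feed inflammasomes, and in macrophages they are known as part of cell-autonomous immunity. In the mouse their genes lie in a cluster on chromosome 3 and another on chromosome 5. Interferon acts on such genes through the interferon-stimulated response element (ISRE), bound by IRF factors, and the gamma-activated site (GAS).

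All 5 genes lie on the plus strand within 144 kb of chromosome 3 (GRCm38, the assembly also called mm10; GENCODE M21). In order they are Gbp5 (142493978 to 142522344), Gbp7 (142530342 to 142550149), Gbp3 (142560026 to 142573209), Gbp2b (142594847 to 142619179) and Gbp2 (142620602 to 142638008). Gbp2b and Gbp2 are separated by 1.42 kb, and the widest gap, between Gbp3 and Gbp2b, is 21.6 kb. The cluster lies 9.0 to 9.12 Mb from Tet2 (133463679 to 133545139).

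The promoters are shown because an ISRE was found in each of the 5 genes. The ISRE and the GAS were the only motifs searched. RefSeq promoter windows (GRCm38.p6), from 250 bases before to 50 bases after each start, were searched on both strands for the ISRE core (GAAA, any 2 bases, GAAA) and for TTCNNNGAA, the GAS core, which is its own reverse complement. The ISRE was found in 5 of 5 genes, against 1079 of all 27025 genes with a window, 3.99%. Clustered genes of the same family are not independent, so this count carries no test. In each gene it lies on the minus strand, so that the plus strand shown here carries its reverse complement, in capitals.
Gbp5 (chr3:142496754-142496793, plus strand): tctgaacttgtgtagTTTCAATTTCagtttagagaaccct
Gbp7 (chr3:142530268-142530307, plus strand): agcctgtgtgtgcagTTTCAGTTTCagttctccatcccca
Gbp3 (chr3:142559984-142560029, plus strand): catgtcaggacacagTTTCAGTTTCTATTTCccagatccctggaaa
Gbp2b (chr3:142594695-142594734, plus strand): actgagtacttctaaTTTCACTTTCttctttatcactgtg
Gbp2 (chr3:142620589-142620628, plus strand): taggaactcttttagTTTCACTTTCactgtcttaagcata
The matches begin 165 bases before the RefSeq start in Gbp5, 53 in Gbp7, 137 in Gbp2b and 59 in Gbp2. RefSeq starts can differ from the GENCODE positions given above. The Gbp5 window, 142496684 to 142496983, lies wholly inside the GENCODE span of Gbp5. The stretches shown for Gbp3 and Gbp2 reach past the GENCODE starts of these genes. In Gbp3 there are 2 overlapping matches, which begin 45 and 39 bases before the start; Gbp3 has a further window, of another start, with no match. The neighbours Gbp2b and Gbp2 carry the same 10 letters, TTTCACTTTC. The GAS was found in 2 of the 5 genes, Gbp5 and Gbp7, with 2 matches in each, against 9.55% of all genes. A match is a description of these letters and not a measured binding site.

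Gbp2b is the gene with no counts in WT cells, and the 250 bases before its start are given in full, with the ISRE again in capitals.
Gbp2b (chr3:142594597-142594846, plus strand): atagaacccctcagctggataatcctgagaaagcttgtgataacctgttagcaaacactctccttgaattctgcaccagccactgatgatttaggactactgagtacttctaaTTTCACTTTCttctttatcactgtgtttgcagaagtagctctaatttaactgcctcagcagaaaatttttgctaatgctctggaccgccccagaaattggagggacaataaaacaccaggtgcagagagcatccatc

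The libraries held 27242168 to 45810089 counts each. As a check of the labels, Tet2 averaged 33.2 ± 1.48 CPM (counts scaled to library size with TMM factors; SD, n = 3) over the WT libraries. The mutant vehicle mean was 15.5 ± 1.30 CPM, and that with SHP099 was 12.4 ± 1.28 CPM. Tet2 counts thus remained in the mutant cells, and the check shows a lower level, not a null allele. Ptpn11 was lower by genotype (log2 -0.26 ± 0.08, SE, edgeR adjusted p = 0.033) and stood at 0.02 ± 0.08 with SHP099. Its genotype adjusted p in edgeR or DESeq2 ran from 0.0034 to 0.1 over 15 alternatives. In mutant SHP099 replicate 3, 4.33% of counts fell on the ribosomal precursor gene Rn45s, against 0.276% to 0.734% in the other libraries. Progenitor and granule genes such as Mpo and Elane summed to 11791 to 19997 CPM per library. By contrast, 8 T and NK cell markers, genes of the cells that make most interferon gamma, summed to 0.180 to 0.575 CPM, Cd8a and Gzma had 0 counts in both mutant groups, and Ifng itself had 1 count in the WT libraries and 0 in both mutant groups. In bulk libraries, fewer cells of a type and less RNA per cell cannot be told apart.

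Between genotypes, Gbp2b, Gbp3, Gbp5 and Gbp7 were higher in every mutant vehicle library than in every WT library, while the Gbp2 ranges overlapped. Since the genes were chosen on this contrast, these values are a description and carry no test. Ranges that lay fully higher in mutant vehicle cells were found for 4 of the 5 genes and for 24.6% of all 13270 genes tested; edgeR called 31.6% of all genes between these groups, 16.9% higher and 14.7% lower.

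Gbp2b, also known as Gbp1 in older usage, is a gene whose response to interferon differs between inbred mouse strains. It had 0 counts in each of the 3 WT libraries. In mutant vehicle replicates 1, 2 and 3 it had 44, 100 and 107 counts, or 1.39, 2.38 and 2.93 CPM. With SHP099 it had 80, 118 and 130 counts, or 1.77, 2.80 and 3.34 CPM. All 6 mutant libraries were therefore positive and all WT libraries empty. The WT group held 103208511 counts in all, and 3 counts over that group, taken as the upper limit for a count of 0, come to 0.0287 CPM. The pooled mutant vehicle level of 2.28 CPM was 79.3-fold this limit, and the SHP099 level of 2.59 CPM 90.3-fold. These ratios, called lower bounds here, allow for counting error in the WT libraries only. They leave out the spread of the mutant libraries, the lowest of which held 1.39 CPM. Of the 13270 genes tested, Gbp2b was the only 1 with 0 counts in all 3 WT libraries. This was known in part when the genes were picked, and Gbp2b passed the filter through the mutant libraries alone. The 11151 genes left out by the filter were not searched. Gbp2b transcripts share 1.84% of their 50-base stretches with Gbp2 and no 100-base stretch with any other gene, and Gbp2 itself was well counted in WT cells (4.88 ± 0.820 CPM; SD, n = 3). Counts carry no sequence, so the Tet2 and Flt3 alleles and any chromosome segment carried along with the Tet2 allele cannot be told apart as the source of the difference.

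Gbp7, whose product takes part in the defence against vacuolar pathogens, was the most abundant of the 5. It stood at 30.9, 32.3 and 32.1 CPM in the WT libraries, 47.4, 56.5 and 52.1 CPM in mutant vehicle libraries and 46.0, 48.1 and 48.1 CPM with SHP099. The mutant vehicle level was 1.64-fold the WT level (log2 fold change 0.71), and the 6 mutant libraries all lay above the 3 WT libraries. Of its 50-base stretches, 12.7% occur in other genes, mostly (10.5%) in Gm43802, a pseudogene inside the Gbp7 locus that has no row in the count table.

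Gbp3 had 3.57, 3.34 and 3.75 CPM in WT libraries. In mutant vehicle libraries it had 6.42, 7.75 and 6.27 CPM, and with SHP099 6.62, 8.39 and 7.48 CPM. The WT values lay close together (3.56 ± 0.203 CPM; SD, n = 3), and the mutant vehicle mean of 6.81 ± 0.817 CPM was 1.91-fold higher (log2 0.94).

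Gbp5, which promotes NLRP3 inflammasome assembly, had the lowest WT values after Gbp2b. They were 1.51, 2.01 and 2.74 CPM. Mutant vehicle libraries had 3.63, 4.32 and 2.98 CPM, and SHP099 libraries 6.05, 6.68 and 4.45 CPM. The highest WT library lay just under the lowest mutant vehicle library, and the lowest SHP099 library lay just above the highest vehicle library, so the 3 groups form a series without overlap. Mutant vehicle cells were at 1.73-fold the WT level (log2 0.79).

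Gbp2, a member recruited to Toxoplasma vacuoles and cytosolic bacteria, was the exception. WT libraries had 4.32, 4.50 and 5.82 CPM, mutant vehicle libraries 4.11, 5.70 and 4.02 CPM, and SHP099 libraries 5.01, 7.37 and 4.34 CPM. The 3 groups overlap, and the mutant vehicle mean was 0.945 of the WT mean (log2 -0.08, and from -0.28 to 0.05 with 1 library left out, the sign turning without WT replicate 3).

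SHP099-treated mutant cells stood against the same WT libraries at 2.10-fold for Gbp3, 2.72-fold for Gbp5, 1.49-fold for Gbp7 and 1.14-fold for Gbp2. Ranges lay fully above WT for 4 of the 5 genes and for 24.4% of all genes; edgeR called 31.7% of all genes. This contrast shares the WT libraries with the previous one, so it carries no test for the members either.

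**Figure D1:**
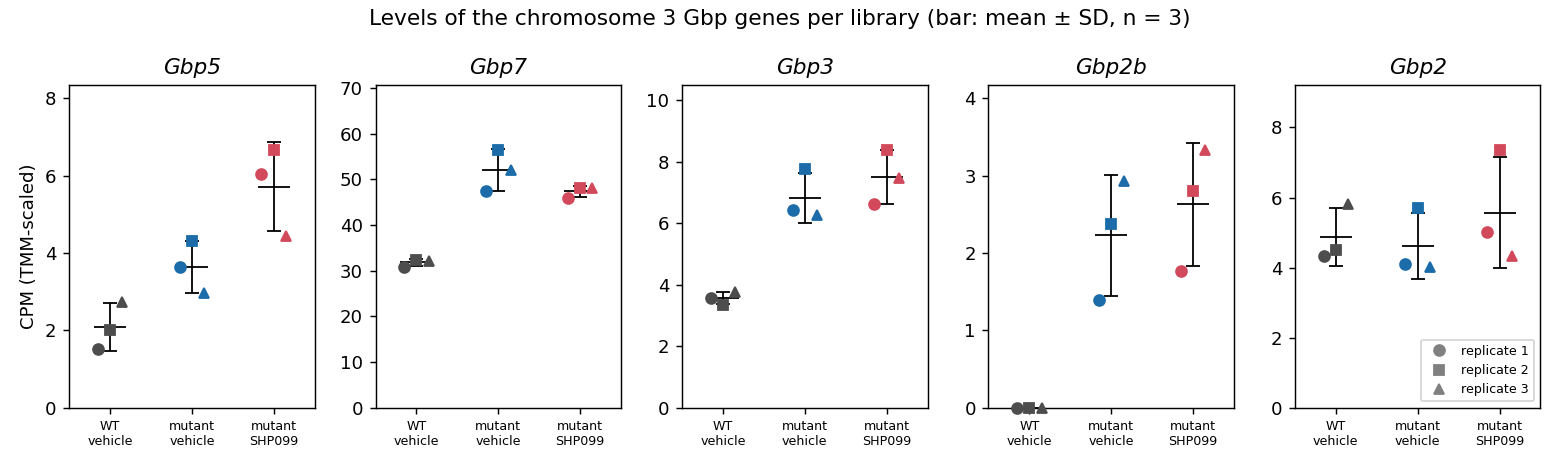
Level of each Gbp gene in CPM on TMM-scaled library sizes (vertical axis, from 0) in the 3 groups, 1 symbol per library with the symbol giving the replicate number; bars are the mean ± SD of 3 libraries. Gbp2b is at 0 in the 3 WT libraries and between 1.39 and 3.34 CPM in the mutant ones, and Gbp2 overlaps between all groups.

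The next comparison asks what SHP2 inhibition did to these genes in the mutant cells, a contrast that the choice of genes did not use. Gbp5 was 1.57-fold higher with SHP099, Gbp2, Gbp2b and Gbp3 stood at 1.21-fold, 1.17-fold and 1.10-fold, and Gbp7 at 0.910-fold. In the edgeR fit of the 3 groups none of the 5 passed. Of all genes 21.8% did, 8.81% higher and 13% lower. Unadjusted, 1 of the 5, Gbp5, had a p under 0.05, as did 35.6% of all genes, and DESeq2 called 1 higher, again Gbp5 (adjusted p = 0.033), where it called 11.2% of all genes higher. Vehicle and SHP099 libraries that share a number deviated together from their group means, and with that pairing in the 6 mutant libraries edgeR called 3 of 5, Gbp5 and Gbp2 higher and Gbp7 lower. This fit called 42.8% of all genes, 21.5% higher and 21.3% lower.

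Gbp5 differed by 0.65 ± 0.23 on the log2 scale in the unpaired fit (SE; edgeR adjusted p = 0.067, 95% interval 0.14 to 1.16) and by 0.65 ± 0.11 in the paired fit (edgeR adjusted p = 1.1e-05, 95% interval 0.43 to 0.87). The 3 pairs gave 0.73, 0.63 and 0.58; all 3 were higher with SHP099. Its vehicle and SHP099 ranges did not overlap, which holds for 18.3% of all genes in the upward direction. The adjusted p of Gbp5 ran from 1.1e-05 to 0.18 over the 16 alternatives, which are edgeR fits except for the 1 with DESeq2. Leaving out WT replicate 1, WT replicate 3 or SHP099 replicate 3 brought it to 0.0467, 0.043 and 0.0493 in edgeR.

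Gbp2 differed by 0.27 ± 0.22 without pairing (edgeR adjusted p = 0.42) and by 0.27 ± 0.10 with it (edgeR adjusted p = 0.034), and its 3 pairs were at 0.29, 0.37 and 0.11. Only with the pairing was Gbp2 called, and leaving out 1 library moved its unpaired value from 0.03 (without SHP099 replicate 2) to 0.47 (without mutant vehicle replicate 2). Gbp7 stood at -0.14 ± 0.06 without pairing (edgeR adjusted p = 0.15) and at -0.13 ± 0.05 with it (edgeR adjusted p = 0.024), and its pairs were at -0.04, -0.23 and -0.12. Without mutant vehicle replicate 1 the unpaired edgeR fit also called Gbp7 (adjusted p = 0.035), at -0.20, and without mutant vehicle replicate 2 its value was -0.06.

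Gbp2b and Gbp3 did not pass in either fit. Gbp2b differed by 0.23 ± 0.32 (edgeR adjusted p = 0.66; 0.17 with pairing), with a 95% interval of -0.51 to 0.97. Gbp3 differed by 0.14 ± 0.12 (edgeR adjusted p = 0.46; 0.22 with pairing), with a 95% interval of -0.13 to 0.40 and values from 0.06 (without SHP099 replicate 2) to 0.25 (without mutant vehicle replicate 2). The pairs of Gbp2b were at 0.34, 0.23 and 0.19, and those of Gbp3 at 0.05, 0.11 and 0.26. In all, 4 of the 5 genes were higher with SHP099 in all 3 pairs, against 32.2% of all genes.

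Markers of several cell types moved in the same contrast, in which the unpaired edgeR fit called 8.81% of all genes higher and 13% lower. Among 7 neutrophil markers, 3 rose and 0 fell (summed level 16919 to 17808 CPM with vehicle, 24495 to 29018 CPM with SHP099), and of 8 monocyte and macrophage markers 2 rose and 0 fell (1112 to 1248 against 1648 to 1676 CPM). Mast cell and basophil markers rose in 4 of 6 cases (827 to 1201 against 1300 to 1699 CPM), megakaryocyte markers in 2 of 5 and progenitor markers in 1 of 6, with none lower. No dendritic or erythroid marker passed without pairing. With pairing edgeR called 7 of 7 neutrophil, 6 of 8 monocyte and macrophage, 6 of 6 mast cell and basophil and 5 of 5 megakaryocyte markers higher. So were 3 of 6 progenitor, 2 of 4 erythroid and 1 of 3 stromal markers, while 1 of 5 dendritic markers was lower. Over all genes the paired fit called 21.5% higher and 21.3% lower. None of the marker types that rose without pairing had a gene at 0. The part of the markers in the SHP099 results of the Gbp genes was not tested. By genotype, neutrophil markers counted 1 higher and 3 lower, monocyte and macrophage markers 1 and 1 (963 to 1220 CPM in WT cells, overlapping the mutant vehicle range), mast cell and basophil markers 0 and 4 of 6, megakaryocyte markers 0 and 5 of 5 and erythroid markers 0 and 4 of 4. The progenitor marker Cd34 was higher, and the dendritic marker Clec9a and the stromal marker Col1a1 were lower, each the 1 called marker of its list. Over all genes edgeR called 16.9% higher and 14.7% lower by genotype. The part of the markers in the Gbp levels by genotype was not tested.

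**Figure D2:**
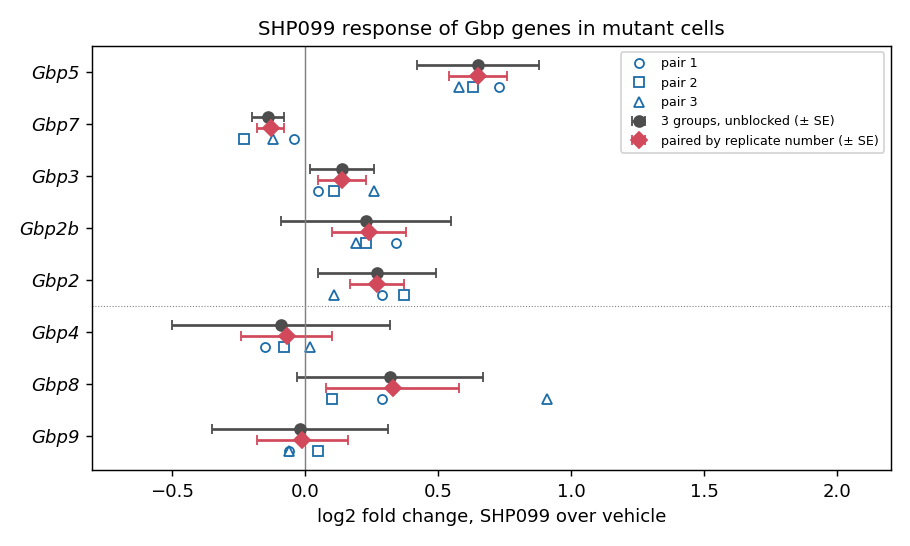
Log2 fold change of SHP099 over vehicle (horizontal axis) for the chromosome 3 genes and, under the dotted line, the tested chromosome 5 genes: the unpaired fit of 3 groups and the fit paired by replicate number (both ± SE), and each pair of libraries as an open symbol. The 3 Gbp5 pairs lie between 0.58 and 0.73, and the Gbp7 pairs lie between -0.23 and -0.04.

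Levels of different genes were set side by side per length, as CPM per kb of merged exons. In WT cells the order was Gbp7 (5.51 to 5.76 CPM per kb), Gbp2 (1.72 to 2.31), Gbp3 (1.02 to 1.15), Gbp5 (0.228 to 0.413) and Gbp2b (0), and no neighbours in that order overlapped. In mutant vehicle cells Gbp7 stayed first at 8.44 to 10.1 CPM per kb. Behind it Gbp3 (1.92 to 2.37) and Gbp2 (1.60 to 2.27) overlapped, as did Gbp2b (0.493 to 1.04) and Gbp5 (0.449 to 0.650). With SHP099 the pairs Gbp3 and Gbp2, and Gbp2b and Gbp5, overlapped again, the latter at 0.626 to 1.18 and 0.670 to 1.01 CPM per kb. With the length of the longest coding transcript, the mutant vehicle mean of Gbp5 was 1.19 CPM per kb and not 0.549, so its place against Gbp2b depends on the transcripts counted.

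The summed level of the 5 genes was 9.0 ± 0.536 CPM per kb in WT cells, 14.5 ± 1.57 in mutant vehicle cells and 14.7 ± 1.18 with SHP099 (SD, n = 3). Gbp7 made up 63.0%, 63.9% and 57.4% of it. The share of Gbp2 was 21.4% in WT cells, 12.6% in mutant vehicle cells and 14.9% with SHP099, while Gbp2b went from 0% to 5.41% and 6.30%. Both sums and shares restate the levels above and were not tested.

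**Figure D3:**
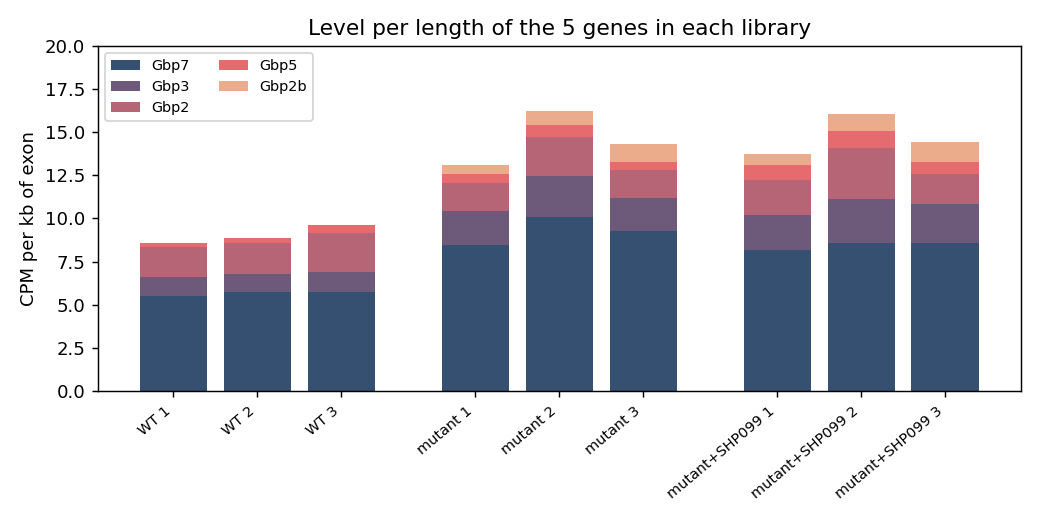
Summed level of the 5 Gbp genes per library in CPM per kb of merged exons (vertical axis, from 0), each bar 1 library and each colour 1 gene. Gbp7 is the largest part of every bar, and the Gbp2b part is missing in the 3 WT bars.

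Genes around the cluster were examined because Tet2 lies on the same chromosome. Within 20 Mb of Tet2, leaving out Tet2 and the 5 Gbp genes, edgeR called 44 of 115 tested genes by genotype (38.3%, 95% Wilson interval 29.9 to 47.4), next to 31.6% of all genes; genes are not independent replicates, and the interval covers counting error only. Of these 27 were higher and 17 lower. Within 5 Mb of Tet2 the count was 12 of 37 (32.4%), within 10 Mb 19 of 53 (35.8%; 16 higher, 3 lower), and at 15 to 20 Mb on the side of the cluster 7 of 9. Between Tet2 and the cluster 7 of 23 genes were called (30.4%). The nearest tested neighbour on the left, Pdlim5 (98.3 kb away), an adaptor protein gene, stood at -0.09 ± 0.05 by genotype on the log2 scale (SE; edgeR adjusted p = 0.2). On the right Gtf2b (127 kb), which encodes a general transcription factor, stood at 0.04 ± 0.05 (edgeR adjusted p = 0.49), and the kinase gene Pkn2 (153 kb) was called at 0.14 ± 0.05 (edgeR adjusted p = 0.045). The Gbp genes were chosen with their values in this contrast known, so setting their size against that of these 3 neighbours carries no test.

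**Figure D4:**
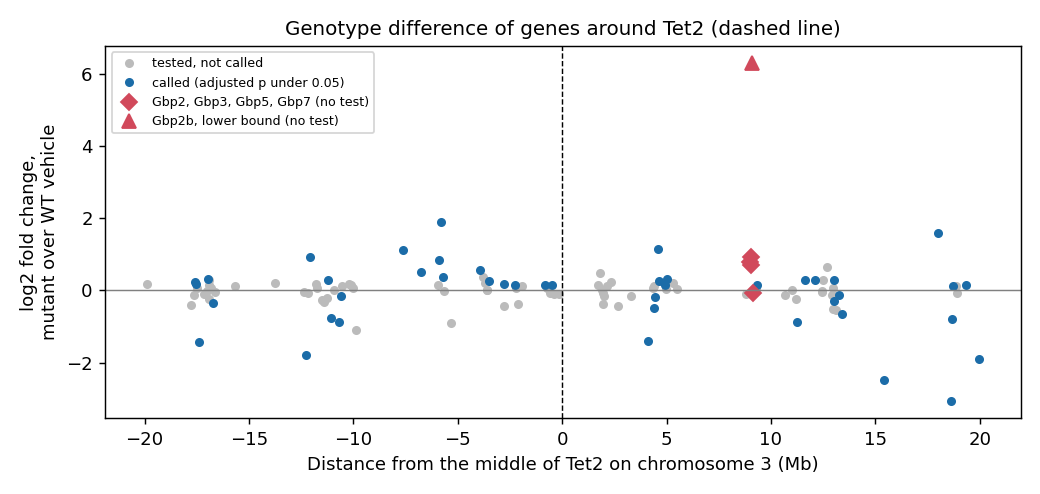
Log2 fold change of mutant over WT vehicle cells (vertical axis) against the distance from the middle of Tet2 in Mb on chromosome 3 (horizontal axis; Tet2 itself is not plotted), for tested genes within 20 Mb. The Gbp genes are drawn in red without a test, Gbp2b at its lower bound of 6.31; the nearest tested genes outside the cluster, Pdlim5, Gtf2b and Pkn2, lie between -0.09 and 0.14.

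The chromosome 5 family members were low in all groups and none passed. Gbp4 was at 1.03 CPM in WT, 1.63 in mutant vehicle and 1.55 in SHP099 libraries on average (genotype log2 0.66 ± 0.43, SE; edgeR adjusted p = 0.27). Gbp9 was at 1.18, 1.52 and 1.51 CPM (0.38 ± 0.34, edgeR adjusted p = 0.43), and Gbp8 at 0.463, 0.613 and 0.770 CPM (0.42 ± 0.38, edgeR adjusted p = 0.44). With SHP099 they stood at -0.09, -0.02 and 0.32. These 3 genes overlap each other on the same strand, so their counts are uncertain, and leaving out 1 library turned the sign of Gbp4 and Gbp9 with SHP099 and of Gbp8 by genotype. Gbp6, Gbp10 and Gbp11 fell under the filter, with 0 to 20 counts per group of 3 libraries.

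Of 10 other interferon-induced GTPase genes 6 could be tested. By genotype edgeR called 1 higher and 1 lower (median log2 0.21, all genes 0.02), a share near the 31.6% of all genes called. The riser was Gm12250, also known as Irgb10, which acts with the guanylate binding proteins on bacterial membranes, from 1.69 to 3.53 CPM (log2 1.05 ± 0.13, SE; edgeR adjusted p = 7.6e-04). Igtp, also known as Irgm3, fell from 54.7 to 31.4 CPM (-0.80 ± 0.14, edgeR adjusted p = 0.0026). With SHP099 edgeR called 1 of the 6 higher, Irgm1 (0.23 ± 0.05, adjusted p = 0.014), where it called 8.81% of all genes higher. With pairing 3 rose, next to 21.5% of all genes. Leaving out any 1 WT library or SHP099 replicate 1 or 2 gave 2 or 3 without pairing. Igtp stood at 0.40 ± 0.14 with SHP099 (edgeR adjusted p = 0.066; with pairing 5.8e-07). RefSeq windows were matched for 6 of the 10 listed GTPases, and the ISRE was found in all 6 and the GAS in 5.

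Of 17 tested interferon signalling genes, edgeR called 4 higher and 2 lower by genotype (median log2 0.10), near the shares over all genes of 16.9% and 14.7%. Irf8, a myeloid transcription factor that also acts on interferon response elements, rose from 17.5 to 40.4 CPM (1.20 ± 0.15, edgeR adjusted p = 6.2e-04), and the receptor chain gene Ifnar2 rose by 0.28 ± 0.07 (edgeR adjusted p = 0.0097). The kinase gene Jak2 fell by 0.24 ± 0.04 (edgeR adjusted p = 0.0033). Socs1, a feedback inhibitor of JAK kinases, fell by 0.52 ± 0.09 (edgeR adjusted p = 0.0023) and rose by 0.39 ± 0.09 with SHP099 (edgeR adjusted p = 0.012). Without WT replicate 3 or mutant vehicle replicate 2 the genotype count of risers was 2. With SHP099 2 rose (8.81% of all genes did) and 1, Stat2, fell (-0.26 ± 0.05, edgeR adjusted p = 0.0082); with pairing 8 rose (21.5% of all genes did) and 1 fell, and without mutant vehicle replicate 1 or 3 or SHP099 replicate 2 or 3 the risers numbered 1.

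Classical interferon gamma targets rose with SHP099 in 8 of 15 tested genes and fell in 0 (median log2 0.20, all genes 0.00; edgeR called 8.81% of all genes higher). With pairing 9 rose and 1, Ciita, fell (21.5% and 21.3% of all genes). The 8 risers of the unpaired fit are genes of antigen presentation on class I molecules. B2m went from 492 ± 15.4 to 676 ± 3.24 CPM (SD, n = 3), or by 0.46 ± 0.06 in log2 units (SE; edgeR adjusted p = 7.7e-04). Psmb9, H2-D1 and Tapbp changed by 0.46, 0.42 and 0.33. The other tested targets, Tap1, Nlrc5, Ciita, Cxcl10, Cd274, Wars and Icam1, were not called without pairing, and Cxcl9, Nos2 and Ido1 fell under the filter. By genotype 3 of the 15 rose and 1 fell (16.9% and 14.7% of all genes). The risers were the immunoproteasome genes Psmb8 (0.43 ± 0.04, edgeR adjusted p = 3.7e-04) and Psmb10 (0.28 ± 0.04, edgeR adjusted p = 0.0016) and the class I transactivator gene Nlrc5 (0.65 ± 0.08, edgeR adjusted p = 6.3e-04). The faller, Tapbp, lost its call without mutant vehicle replicate 1 (edgeR adjusted p = 0.065).

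Of 17 tested genes of the type I interferon response, 2 rose and 4 fell by genotype (median log2 -0.08; 31.6% of all genes were called), while without WT replicate 3 or mutant vehicle replicate 2 none rose, and without WT replicate 1 or mutant vehicle replicate 3 only 1 fell. Ifit2 fell by 0.39 ± 0.10 (edgeR adjusted p = 0.016). With SHP099 3 rose, Oasl2, Xaf1 and Isg15 (0.91, 0.58 and 0.47), and 0 fell, next to 8.81% and 13% of all genes. Without mutant vehicle replicate 1 or 3, or SHP099 replicate 2, none was called. With pairing 10 of 16 rose and 1 fell, next to 21.5% and 21.3% of all genes.

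Partners of the guanylate binding proteins, the inflammasome and autophagy genes, rose with SHP099 in 6 of 18 cases and fell in 0 (median log2 0.20), with 8.81% of all genes called higher. Autophagy conjugation places these GTPases on vacuoles, and the genes concerned included Gabarap (0.42 ± 0.06, edgeR adjusted p = 0.0019), Map1lc3b (0.33 ± 0.04, edgeR adjusted p = 8.7e-04), Atg7 (0.27) and Atg5 (0.21). The autophagy genes Atg3 (0.08), Atg12 (-0.08), Atg16l1 (-0.12) and Gabarapl2 (0.23) were not called without pairing. With pairing 10 rose (21.5% of all genes). By genotype 3 rose and 5 fell (16.9% and 14.7% of all genes). The risers were Nlrp3 (0.59 ± 0.17, edgeR adjusted p = 0.024), Atg12 (0.27 ± 0.08, edgeR adjusted p = 0.026) and Il18. Il18 went from 0.289 CPM in WT to 0.727 CPM in mutant vehicle cells (1.33 ± 0.42, edgeR adjusted p = 0.037). Gabarapl2 (-0.30 ± 0.07, edgeR adjusted p = 0.013) and Map1lc3b (-0.16 ± 0.04, edgeR adjusted p = 0.016) were among the fallers. Without WT replicate 2 or 3 or mutant vehicle replicate 3 none rose, and without mutant vehicle replicate 1 2 fell. Some guanylate binding proteins, Gbp2 and Gbp5 included, are anchored to membranes by a prenyl group. Of 6 prenylation genes 1, Pggt1b, a subunit of the enzyme that adds a geranylgeranyl group, was called with SHP099 (-0.29 ± 0.06, edgeR adjusted p = 0.0091), and none was called by genotype. Over all genes edgeR called 21.8% with SHP099 and 31.6% by genotype. With pairing Fnta was also called, higher (0.15 ± 0.04, edgeR adjusted p = 0.0063), making 2 of 6 next to 42.8% of all genes.

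**Figure D5:**
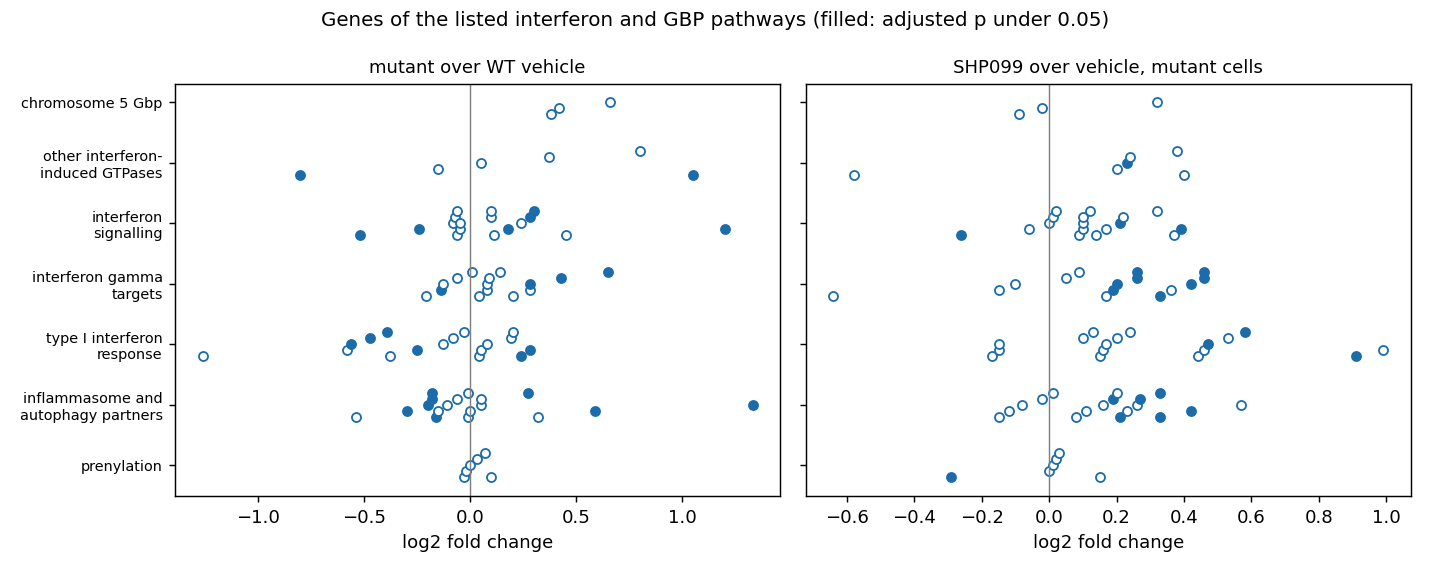
Log2 fold change (horizontal axes) of each tested gene of 7 lists, by genotype on the left and with SHP099 on the right; filled symbols passed the unpaired edgeR fit. Gm12250, Irf8 and Il18 are the filled symbols at 1.05, 1.20 and 1.33 on the left. The 8 filled interferon gamma targets on the right all lie above 0.

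The genes most like each member were found as those with the smallest root mean square difference of centred log2 CPM over the 9 libraries. For Gbp2b the nearest was Mtus2 on chromosome 5, which went from 0.0175 CPM in WT cells to 1.99 and 1.95 CPM in the mutant groups, at a difference of 1.01, followed by Orm2 and Npm3-ps1. Gbp3 lay closest to Slc8a1 (0.09), Cd180 (0.09) and Cnn3 (0.13), of which Cnn3 is on chromosome 3. Gbp5 lay closest to Tmem176b (0.17), with 10.4, 17.1 and 25.3 CPM in the 3 groups, then to 1700012D01Rik and Serpinf1. Gbp7 lay closest to Sestd1 (0.07), Dtx4 (0.09) and Nlrc5 (0.09), and Gbp2 to Tmem109, D130017N08Rik and Pld2 (0.10 each). Among the members themselves Gbp3 and Gbp7 were nearest (0.22). The differences of Gbp2b from the other members, up to 2.60 with Gbp2, rest largely on its WT counts of 0, known when the genes were picked. The prior count sets these to -4.24 on the log2 scale, so the size of the differences depends on it.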

How the data were processed

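Raw counts per gene were deposited by the authors as whole numbers for 24421 symbols in 9 columns. Per the labels' protocols, libraries came from total RNA with a TruSeq stranded mRNA kit; per the submitters' processing notes, FastQC, STAR, featureCounts and Subread were used with build mm10. Software versions, the annotation release and the strand option are not given in these sources.

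The model was fitted with edgeR 4.0.16 (R 4.3.3). It used filterByExpr with a minimum count of 10, which kept 13270 genes and left out 11151, TMM scaling, and 1 quasi-likelihood model with 3 group means over all 9 libraries. Tests were two-sided, adjusted by Benjamini-Hochberg over all genes, with a threshold of 0.05. The biological coefficient of variation was 9.04%. Total counts per library were 27242168 to 45810089, and 1 CPM corresponds to 27.8 to 45.3 counts. The scripts were tested on simulated data. For likeness the prior count of log2 CPM was 2. Gene positions and merged exon lengths came from GENCODE M21 on GRCm38 (23384 of 24421 symbols matched), promoter windows from RefSeq.

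Replicate numbers come from the titles. In mutant cells, same-numbered vehicle and SHP099 libraries deviated together from their group means (correlations across genes of 0.54, 0.6 and 0.56), so they are taken as pairs. Unlike numbers gave -0.36 to -0.23. Deviations within a group cancel out, which forces these values below 0 once the like-numbered ones are high, so they add no separate support. WT and mutant vehicle libraries did not (-0.13 to -0.07). The paired fit used the 6 mutant libraries with the number as a block and was chosen after seeing the data.

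Members and gene lists were chosen with earlier results of these data known. Named genes were Tet2, Ptpn11, all Gbp genes, up to 4 genes per list with the smallest p in each contrast, the 3 genes most like each member and the neighbours of the cluster; not all are printed. Genes named to account for small counts, and the interferon gamma targets that did not rise, were added after their values were seen. Some listed genes are not reported here. Alternatives were other size factors, DESeq2 1.42.0, other low-count filters, each library left out, the 2 compared groups alone and the replicate block.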

Additional observations from a re-analysis of the deposited data

How the results depend on the processing

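The counts of genes called were 2890 with SHP099, 4199 by genotype and 4209 for treated mutant against WT cells. Leaving out 1 library gave 1767 to 2976, 2879 to 3886 and 2826 to 4403, and the paired fit of the 6 mutant libraries (replicate block, chosen after seeing the data) gave 5563 with SHP099. Of the 5 Gbp genes, 0 passed with SHP099 in the unpaired fit, 1 with DESeq2, 1 with the 2 groups alone, 0 to 1 with 1 library left out and 3 with the replicate block in the mutant libraries; the block over all 9 libraries left Gbp5 at an edgeR adjusted p of 0.071. Listed genes called with SHP099 were 22, against 45 with that paired fit. With 1 library left out they were 16 to 27, and by genotype, where 26 were called, 18 to 29. The lower bound of Gbp2b by genotype, 6.31 on the log2 scale, ran from 5.58 to 6.52 with 1 library left out. Per length, the longest coding transcript gave 2.54 CPM per kb for Gbp3 and 1.19 for Gbp5 in mutant vehicle cells. Signs turned with 1 library left out for Gbp2b (-0.01 to 0.48), Gbp4 (-0.56 to 0.44), Gbp9 (-0.41 to 0.35) and Ptpn11 (-0.02 to 0.13) with SHP099, and for Gbp2 (-0.28 to 0.05), Gbp8 (-0.02 to 0.73) and Zmpste24 (-0.03 to 0.04) by genotype, the last also with the 2 groups alone (-0.00). The cause was not tested for any of these. Gbp2b counts of 44 to 130 per mutant library limit the precision of its SHP099 comparison.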
